A study of Homo sapiens with 6 samples.

Results

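The machinery of programmed cell death was examined as 38 genes taken by symbol: the BCL2 family, caspases and their inhibitors, the apoptosome with the proteins mitochondria release, and death receptors with their adaptors. All 38 were found among the 40205 rows of the count table, and 37 of them were among the 15047 genes with enough reads to test. Membership was set by gene symbol, with no threshold on these data. RNA-seq had been run on cells labelled HepG2, a human liver cancer line, in 3 control samples and 3 samples exposed to cationic liposomes (CLs), which are positively charged lipid particles made of DOTAP, cholesterol and a PEG-linked lipid and used to carry nucleic acids and drugs. Per the labels, all 6 samples grew in serum-containing DMEM with penicillin and streptomycin, and the treated wells received 120 µM CLs for 24 h. The labels name no vehicle for the controls, and the study's own text gives the dose both in the unit of the labels and as a mass per volume. The study calls the samples independent, but the labels do not say that they came from separate cultures, and if they did not the p-values measure only a technical spread.

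Apoptosis runs by a mitochondrial and a receptor route. In the mitochondrial route, BH3-only proteins sense stress and bind anti-apoptotic BCL2 proteins, BAX and BAK1 then open the outer mitochondrial membrane, and the released cytochrome c assembles with APAF1 into the apoptosome that activates CASP9. In the receptor route, ligands such as TRAIL, FAS ligand and TNF gather FADD and CASP8 at the membrane, CFLAR limits that step, and BID carries the signal on to mitochondria. Much of this control acts on proteins, by binding and cleavage, and mRNA levels show only how much message for each part was present.

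The libraries held 11418527 to 13998946 reads on genes, and 20614 to 22034 genes had at least a read. The cells did not show the markers of their label. The 12 hepatocyte genes that define HepG2 summed to between 0.608 and 1.73 CPM (read counts scaled to a common library total) in the controls and to between 0.519 and 6.58 CPM in the CLs-treated libraries, and ALB, APOB, APOH and TTR had no read in any control. Of these 12 genes, 4 had at most 3 counts in all 6 libraries, and no gene of the list passed 2.63 CPM. A list of 7 fibroblast genes summed to between 730.0 and 1098 CPM in the controls and to between 808 and 954 CPM in the CLs-treated libraries. COL3A1 made up most of these sums, at 647 to 974 CPM in the 5 libraries other than CLs-1, where 4 of the 7 genes, COL1A2, DCN, LUM and THY1, stood at 0.434 CPM or less. The library CLs-1 stood apart from the rest. In CLs-1, COL1A2 stood at 72.3 CPM, HBB at 22.4 CPM and STAR at 20.1 CPM, against at most 0.17, 0.34 and 0.26 CPM in the other 5 libraries. The sums over the 7 adrenal cortex genes, of which 4 had at most 3 counts in all 6 libraries, were 0.955 to 2.76 CPM in the controls and 2.51 to 32.3 CPM after CLs. Those over the 7 blood cell genes, of which 3 had at most 3 counts in all 6 libraries, were 13.0 to 17.5 CPM and 17.3 to 53.2 CPM. Outside CLs-1 that sum was almost all CD68, at 12.9 to 23.2 CPM, and none of the other 6 blood cell genes passed 0.343 CPM there. The 4 endothelial genes summed to at most 3.69 CPM in every library. The part of these transcripts in the results was not tested. Without CLs-1 the estimates of 7 of the 37 genes changed sign, namely BCL2, BAD, HTRA2, XIAP, BIRC2, CASP2 and CASP6.

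No gene of the death machinery passed the test between control and CLs-treated cells. By the quasi-likelihood test of edgeR, with p-values adjusted by Benjamini-Hochberg over all genes tested, 0 of 37 were called at an adjusted p under 0.05 with a fold change above 1.5 or below 0.67, where 13 of 15047 genes, or 0.0864%, were called in all, and DESeq2 also called 0 of the 37. The smallest adjusted p among them was 0.288, for BCL2L1. At an unadjusted p under 0.05 there were 2 genes, BCL2L1 and CASP9, both lower after CLs. This was the case for 5.81% of all genes tested, with 3.62% lower and 2.19% higher, so that the 2 of 37 lay close to the share of all genes. In 3 genes, BCL2L1, CASP9 and CFLAR, every CLs-treated library lay below every control library, against 6.18% of all genes lower in this way and 11.5% separated in either direction. The fitted log2 fold change (CLs-treated over control) was above 0 for 26 genes and below 0 for 11, with a median of 0.06, where the median over all genes tested was 0.01 and 52.1% of them were above 0. The median of the 37 was -0.00043 without Control-1 and 0.10 without CLs-1. Single estimates ran from -0.56 to 0.39, with standard errors between 0.13 and 0.28.

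The 95% intervals give the sizes of change that the data leave possible. The interval lay within a 1.5-fold change either way for 21 of the 37 genes and within a 2-fold change for 35, the exceptions being CASP9 and BIRC3. Over all genes tested, 49.1% and 83.2% had intervals that narrow. In bulk RNA a lower value can come from fewer cells of a type or from less RNA per cell, which cannot be told apart here.

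**Figure D1:**
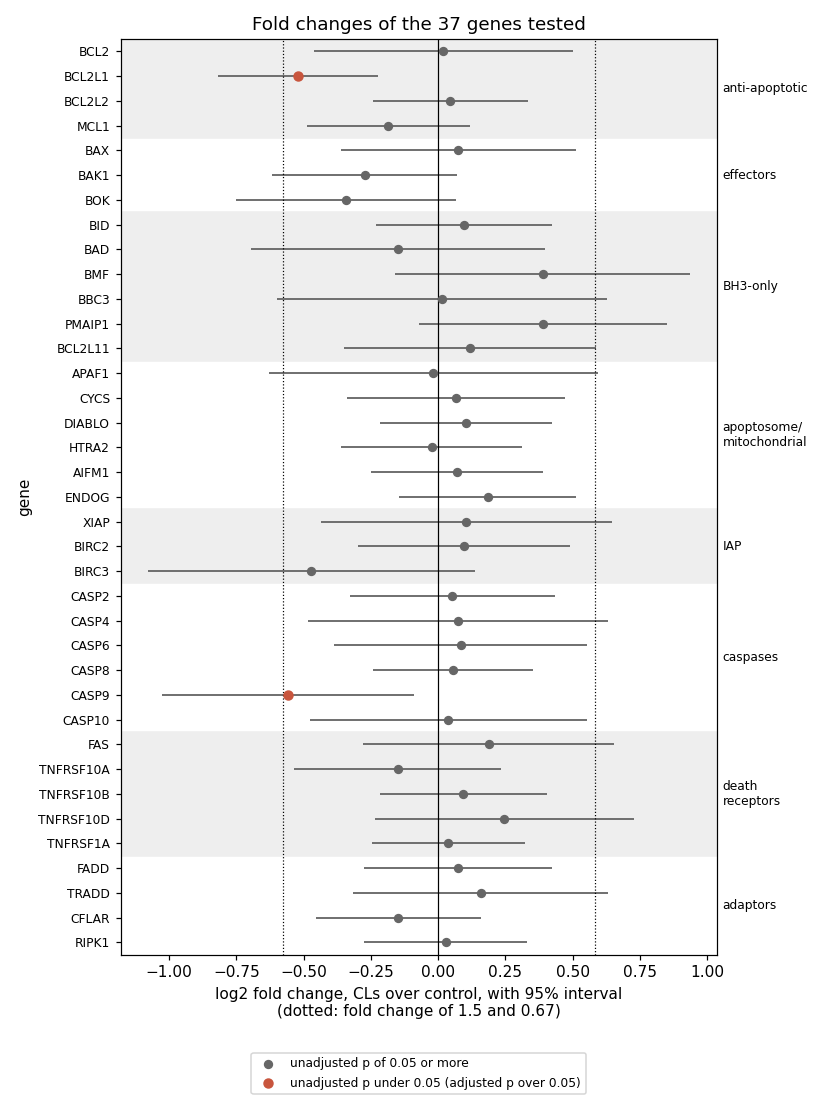
Fitted log2 fold change (CLs-treated over control) of the 37 genes tested on the horizontal axis, with genes grouped by role on the vertical axis; bars are 95% intervals and dotted lines mark fold changes of 1.5 and 0.67. The intervals of BCL2L1 and CASP9, in red, are the ones that do not cross 0, and neither gene had an adjusted p under 0.05.

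The promoters of BCL2L1, CASP9 and CFLAR are shown first, because these were the genes whose groups did not overlap. Each is the 250 bases before the most upstream start that RefSeq lists, on GRCh38.p14 and read 5′ to 3′ on the gene's own strand. BCL2L1 lies on the minus strand at chr20:31723964-31724213, CASP9 on the minus strand at chr1:15524791-15525040, and CFLAR on the plus strand at chr2:201118466-201118715. Capitals mark the motifs searched on both strands, namely the GC box GGGCGG, the CCAAT box, the TATA box TATAAA and the AP-1 site TGANTCA.

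BCL2L1: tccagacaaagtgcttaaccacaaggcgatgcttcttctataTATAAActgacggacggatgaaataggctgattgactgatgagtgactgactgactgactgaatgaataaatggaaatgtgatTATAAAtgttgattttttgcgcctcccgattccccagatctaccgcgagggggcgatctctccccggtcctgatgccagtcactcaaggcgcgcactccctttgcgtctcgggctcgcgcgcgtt
CASP9: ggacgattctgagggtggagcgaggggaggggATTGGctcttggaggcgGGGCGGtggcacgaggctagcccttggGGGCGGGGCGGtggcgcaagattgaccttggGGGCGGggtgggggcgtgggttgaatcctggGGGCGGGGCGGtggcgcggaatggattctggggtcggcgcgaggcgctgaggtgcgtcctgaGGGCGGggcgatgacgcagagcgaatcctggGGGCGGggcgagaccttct
CFLAR: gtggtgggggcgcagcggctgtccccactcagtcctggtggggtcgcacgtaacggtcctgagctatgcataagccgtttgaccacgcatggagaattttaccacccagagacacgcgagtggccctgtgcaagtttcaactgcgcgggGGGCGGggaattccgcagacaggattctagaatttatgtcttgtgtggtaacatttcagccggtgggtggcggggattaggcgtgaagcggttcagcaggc

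The 3 windows differ in makeup. The BCL2L1 window is 50% G and C and holds the TATA box letters in 2 places, the CASP9 window is 71.6% G and C with 8 GC boxes, neighbouring ones overlapping by a base in places, and a CCAAT box on the opposite strand, and the CFLAR window is 58.8% G and C with 1 GC box. Of 27305 promoters of this length, 42.2% hold GGGCGG, 33.0% CCAAT, 11.2% TATAAA and 6.57% TGANTCA. The promoter table matched 30 of the 38 genes, and among these the motifs were found in 19, 17, 2 and 2. The letters are a description of these windows. RefSeq lists 2 starts each for BCL2L1 and CASP9 and 4 for CFLAR, and the counts do not say which was used.

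Of the 4 anti-apoptotic genes, 1 was lower after CLs at an unadjusted p under 0.05. BCL2L1 encodes BCL-xL, which holds BAX and BAK1 in check at the mitochondrial surface. Its level was 77.7, 78.8 and 65.4 CPM in the controls and 54.5, 52.1 and 48.1 CPM after CLs, in the order of the replicate numbers, as for each gene that follows. All 3 CLs-treated libraries were below the lowest control, which was Control-3. The means were 74.0 ± 7.44 CPM and 51.6 ± 3.23 CPM (SD, n = 3), a log2 fold change of -0.52 with a standard error of 0.13 and a 95% interval from -0.82 to -0.22. By edgeR's quasi-likelihood test the unadjusted p was 0.0026 and the Benjamini-Hochberg adjusted p 0.288, and with DESeq2 the adjusted p was 0.0973. The estimate was as large without CLs-1, at -0.56, and over all 6 single libraries left out it stayed between -0.60 and -0.47. Gene-level counts do not separate the long BCL-xL message from the short, pro-apoptotic BCL-xS made from the same gene by splicing.

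MCL1, a short-lived anti-apoptotic protein, had the most reads of the group. Its level was 213, 202 and 192 CPM in the controls and 204, 157 and 172 CPM after CLs. CLs-2 and CLs-3 were below all controls, while CLs-1 lay among them. The log2 fold change was -0.18 ± 0.14 (SE), with an unadjusted p of 0.208 and an adjusted p of 0.977 by edgeR's quasi-likelihood test. Without CLs-1 it was -0.30 at an unadjusted p of 0.0309 by the same edgeR test, and without CLs-2 it was -0.10 at an unadjusted p of 0.514. BCL2, the founding member of the family, was scarce in these cells at 7.01 to 10.0 CPM over the 6 libraries, and BCL2L2, which encodes BCL-w, ranged from 42.2 to 48.9 CPM. The groups overlapped for both, with estimates of 0.02 and 0.05.

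**Figure D2:**
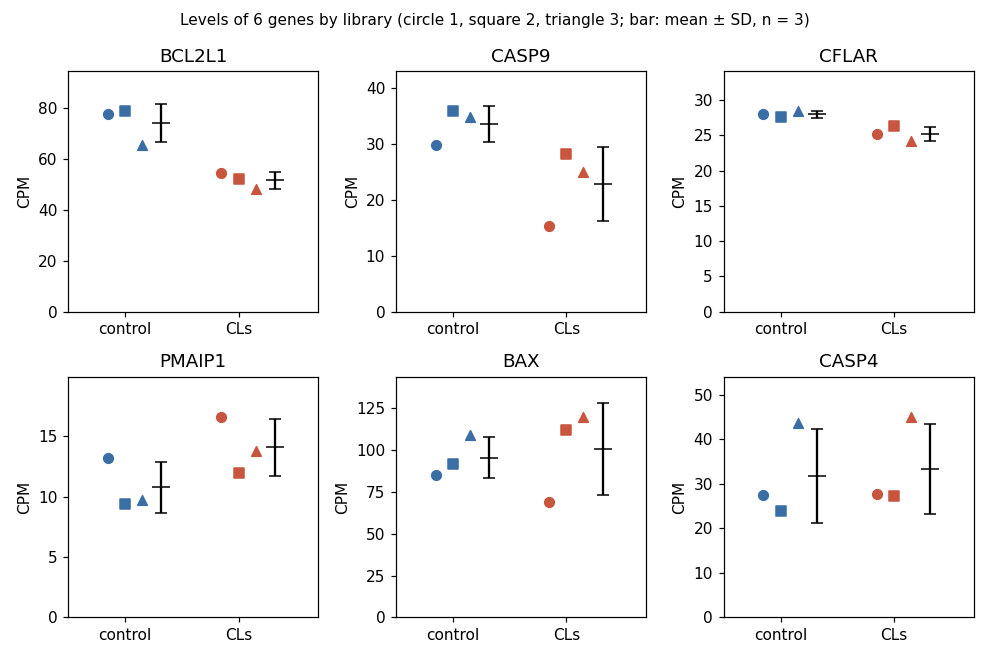
CPM (vertical axis, from 0) of BCL2L1, CASP9, CFLAR, PMAIP1, BAX and CASP4 in each library, controls in blue and CLs-treated in red, with black bars for the mean ± SD of 3 libraries. The CLs-treated libraries of BCL2L1, CASP9 and CFLAR sit below all controls, while those of PMAIP1, BAX and CASP4 overlap them.

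None of the 3 pore-forming effectors passed the test, and 2 of their 3 estimates were below 0, against 47.9% of all genes tested. BAX, which opens the outer mitochondrial membrane, stood at 85.3, 91.6 and 109 CPM in the controls and at 69.1, 112 and 120 CPM in the CLs-treated libraries. CLs-1 was the lowest and CLs-2 and CLs-3 the highest of the 6, so the treated libraries spread around the controls on both sides. The log2 fold change was 0.07 ± 0.20 (SE). Without CLs-1 it was 0.28, and without CLs-3 it turned to -0.07. BAK1, the partner of BAX, ran from 42.9 to 53.7 CPM in the controls and from 33.2 to 43.8 CPM after CLs, with an estimate of -0.27. BOK, a related effector, ran from 17.3 to 22.8 CPM and from 13.2 to 17.6 CPM with an estimate of -0.34. Both overlapped, and their unadjusted p-values by edgeR's quasi-likelihood test were 0.109 and 0.092. Without CLs-1 the estimates were -0.16 for BAK1 and -0.25 for BOK, and without Control-3 that of BOK was -0.21.

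The BH3-only genes, which report stress to the family, had 5 of 6 tested estimates above 0, against 52.1% of all genes, and none past the test. BID, the link from CASP8 to mitochondria, had the most reads, at 38.7, 36.01 and 31.0 CPM in the controls and 35.2, 41.6 and 36.2 CPM after CLs. The groups overlapped, and the log2 fold change was 0.10 ± 0.15 (SE). PMAIP1, which encodes NOXA, a p53 target that binds MCL1, was looked at after its values were seen. It stood at 13.2, 9.41 and 9.69 CPM in the controls and 16.6, 11.9 and 13.8 CPM after CLs. Control-1 lay above CLs-2, and otherwise the treated libraries were the higher ones. Its log2 fold change of 0.39 ± 0.21 (SE) had an unadjusted p of 0.0888 and an adjusted p of 0.906 by edgeR's quasi-likelihood test, and it was 0.25 without CLs-1 and 0.56 without Control-1.

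BMF, which senses detachment and cytoskeletal stress, had an estimate of the same size, 0.39, with the lowest value of 8.94 CPM in Control-1 and the highest of 20.5 CPM in CLs-2, and without CLs-2 the estimate was 0.10. BBC3, which encodes the p53 target PUMA, ranged from 3.99 to 7.63 CPM, and BCL2L11, which encodes BIM, from 7.77 to 11.6 CPM, with estimates of 0.01 and 0.12. BAD, which binds BCL2 and BCL-xL when growth factors are withdrawn, was at 11.5 CPM in CLs-1 and between 19.9 and 24.6 CPM in the other 5 libraries, and its log2 fold change of -0.15 was 0.13 without CLs-1. BIK was near background in these cells, with 5, 3 and 7 counts in the controls and 4, 10 and 3 after CLs, and was the gene left untested.

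**Figure D3:**
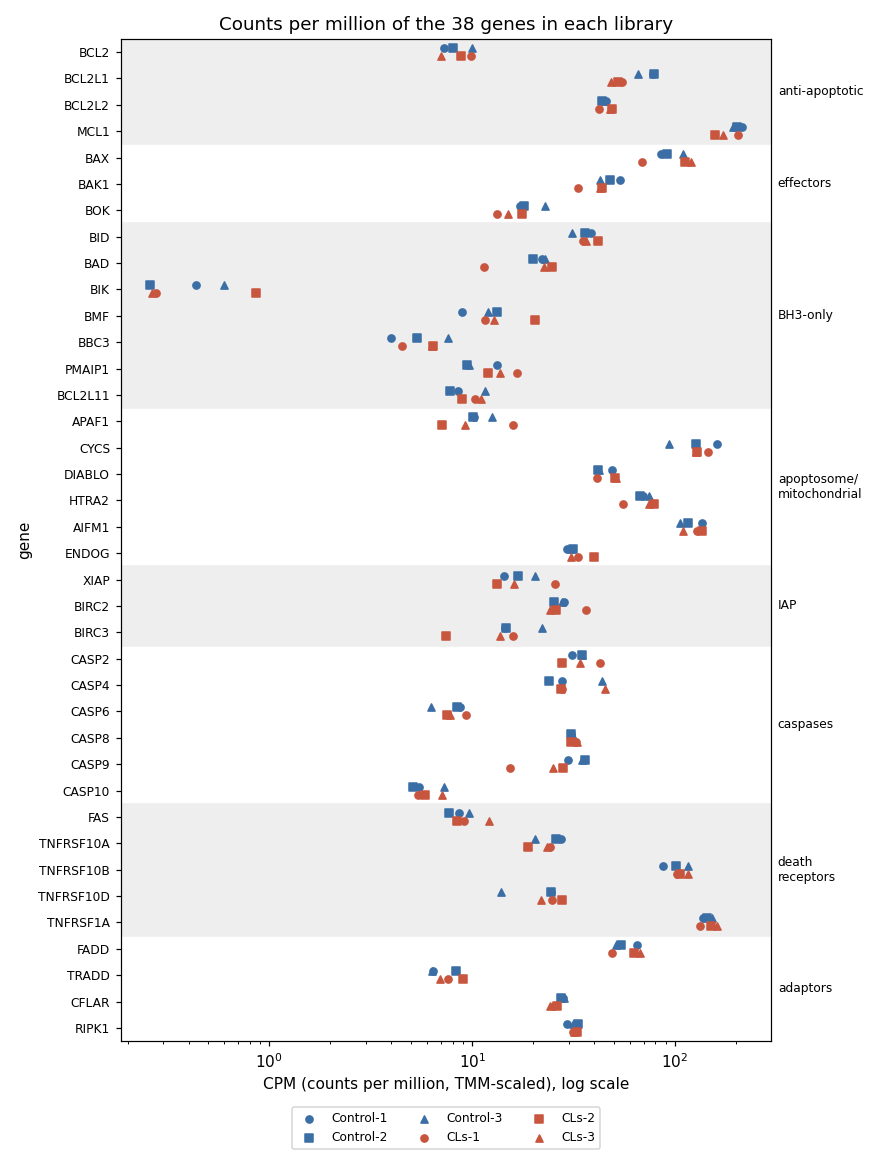
CPM of the 38 genes (horizontal axis, log scale) in each library, with genes grouped by role on the vertical axis and controls in blue above CLs-treated libraries in red. Apart from BIK, every gene was at 3.99 CPM or more in all 6 libraries, and in most rows the colours overlap.

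The 6 genes of the apoptosome and of mitochondrial release all overlapped between the groups, with estimates between -0.02 and 0.18. CYCS, cytochrome c, stood at 162, 126 and 93.3 CPM in the controls and at 145, 128 and 127 CPM after CLs. The controls spanned the treated libraries from both sides, and the log2 fold change was 0.07 ± 0.18 (SE). CYCS has many processed copies in the genome. The 45 rows of such pseudogenes summed to at most 8.48% of the CYCS reads in a library, and reads shared with them may have been split or lost. APAF1, the scaffold of the apoptosome, ran from 7.09 CPM in CLs-2 to 15.9 CPM in CLs-1, which were the lowest and highest of all 6 libraries, and its log2 fold change of -0.02 was -0.42 without CLs-1 and 0.21 without CLs-2. DIABLO and HTRA2, which block IAP proteins once released, ranged from 41.1 to 51.3 CPM and from 55.5 to 78.7 CPM. AIFM1 and ENDOG, which act on DNA in the nucleus, ranged from 105 to 136 CPM and from 29.4 to 40.02 CPM.

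The 3 IAP genes, whose proteins hold caspases and receptor complexes in check, gave estimates of both signs. BIRC2, a ubiquitin ligase of TNF receptor complexes, had 28.2, 25.2 and 27.8 CPM in the controls and 36.6, 26.02 and 24.2 CPM after CLs. CLs-1 was the highest and CLs-3 the lowest, and the log2 fold change of 0.10 ± 0.18 (SE) was -0.11 without CLs-1. BIRC3, its close relative and an NF-κB target, was looked at after its values were seen. Its levels were 14.6, 14.7 and 22.1 CPM in the controls and 15.9, 7.43 and 13.7 CPM after CLs. CLs-2 was the lowest and Control-3 the highest, and CLs-1 lay among the controls. The log2 fold change was -0.47 ± 0.28 (SE), with an unadjusted p of 0.116 and an adjusted p of 0.938 by edgeR's quasi-likelihood test. It was -0.70 without CLs-1 and -0.21 without CLs-2. XIAP, which binds caspases directly, ran from 13.3 to 25.7 CPM with its highest value in CLs-1, and its log2 fold change of 0.11 was -0.22 without CLs-1.

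Among the 6 caspases, CASP9 was lower after CLs at an unadjusted p under 0.05 and the other 5 had estimates between 0.04 and 0.08. CASP9, the initiator that the apoptosome activates, was at 29.8, 35.8 and 34.8 CPM in the controls and at 15.3, 28.2 and 24.9 CPM after CLs. Every treated library was below every control, but CLs-1 lay far under the other treated libraries and CLs-2 close to Control-1. The means were 33.5 ± 3.24 CPM and 22.8 ± 6.69 CPM (SD, n = 3), and the log2 fold change was -0.56 ± 0.21 (SE), with a 95% interval from -1.03 to -0.09. By edgeR's quasi-likelihood test the unadjusted p was 0.0234 and the Benjamini-Hochberg adjusted p 0.701. Without CLs-1 the estimate shrank to -0.34 at an unadjusted p of 0.0467 by the same edgeR test, and without Control-2 the unadjusted p was 0.0724. With a block for the replicate number, edgeR's quasi-likelihood test gave CASP9 an unadjusted p of 0.00346 and an adjusted p of 0.196. CASP9 also makes a short splice form that lacks the catalytic part, which gene counts do not separate.

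CASP2, an initiator caspase of the response to DNA damage, had the most reads of the caspases over the 6 libraries. It stood at 31.0, 34.7 and 34.9 CPM in the controls and 42.6, 27.6 and 34.1 CPM after CLs. CLs-1 was the highest and CLs-2 the lowest, and the log2 fold change of 0.05 ± 0.17 (SE) was -0.12 without CLs-1. CASP8, the initiator at death receptors, was the steadiest, between 30.6 and 32.9 CPM in all 6 libraries. CASP10, its relative, ranged from 5.09 to 7.29 CPM, and CASP6, an executioner, from 6.26 to 9.35 CPM. CASP4, an inflammatory caspase that responds to bacterial lipopolysaccharide in the cytosol, was looked at after its values were seen. It had 27.6, 23.9 and 43.7 CPM in the controls and 27.8, 27.4 and 45.1 CPM after CLs. Control-3 and CLs-3 were both high and the rest alike, so the spread lay within the groups and not between them.

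**Figure D4:**
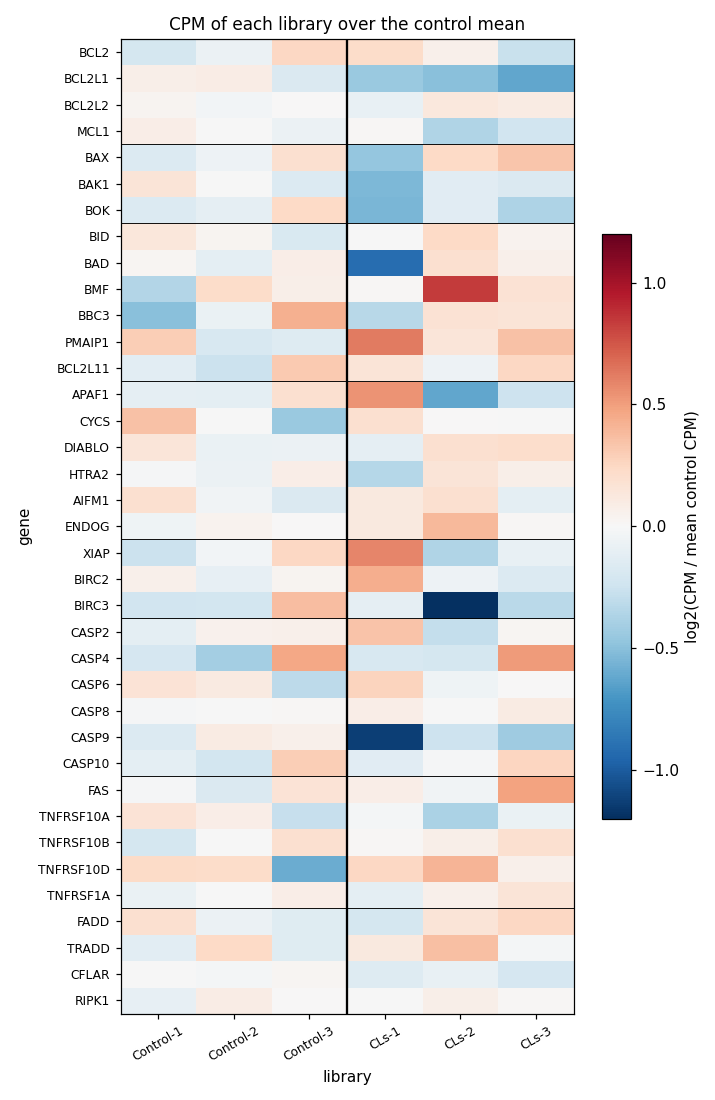
Colour gives the log2 ratio of each library's CPM to the control mean for the 37 genes tested (rows, grouped by role) in the 6 libraries (columns). The row of BCL2L1 is blue in all 3 CLs-treated columns, CLs-1 carries the deepest blue of CASP9 and BAD, and the pair Control-3 and CLs-3 share red in CASP4.

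The 5 death receptors overlapped between the groups, with 4 estimates above 0, as were 52.1% of all genes tested, and 1 below. TNFRSF1A, the main TNF receptor, had 137, 144 and 152 CPM in the controls and 133, 150 and 161 CPM after CLs. The groups lay over each other, and the log2 fold change was 0.04 ± 0.13 (SE). TNFRSF10B, a TRAIL receptor with a death domain, ranged from 87.1 to 115 CPM. TNFRSF10A, the other TRAIL receptor of this kind, ranged from 18.8 to 27.4 CPM, and the decoy TNFRSF10D, whose death domain is cut short, from 13.9 to 27.7 CPM. FAS was at 7.69 to 12.1 CPM.

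Of the 4 adaptors and regulators that sit under the receptors, CFLAR was the gene whose groups did not overlap. CFLAR encodes FLIP, which resembles CASP8 without its activity. It had 28.0, 27.6 and 28.5 CPM in the controls and 25.2, 26.3 and 24.3 CPM after CLs. The treated libraries were all lower, but by little, with a log2 fold change of -0.15 ± 0.14 (SE) and an unadjusted p of 0.309 and adjusted p of 0.998 by edgeR's quasi-likelihood test. Leaving out any 1 library kept the estimate between -0.18 and -0.12. The standard error rests on a spread moderated across genes, and not on these 6 values alone. Counts do not separate the long and short FLIP forms. FADD, the adaptor that brings in CASP8, had the most reads, with 64.7, 54.1 and 51.0 CPM in the controls and 48.9, 62.9 and 67.02 CPM after CLs. CLs-1 was the lowest and CLs-3 the highest, and the log2 fold change was 0.07 ± 0.16 (SE). TRADD, the adaptor of the TNF receptor, ranged from 6.35 to 8.99 CPM, and the kinase RIPK1 from 29.3 to 33.4 CPM.

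Ratios between genes of opposed roles were taken within each library, where no scaling factor enters, and 5 pairs were tested with an exact two-sided permutation test that cannot go below p = 0.1 with 3 libraries a group. The PMAIP1 to MCL1 count ratio was 0.0621, 0.0469 and 0.0507 in the controls and 0.0816, 0.0762 and 0.0800 after CLs. All 3 treated libraries were above all controls, and the mean log2 ratio differed by 0.58, the exact permutation p being 0.1, the smallest possible, and 0.25 after Benjamini-Hochberg adjustment over the 5 pairs. Leaving out any 1 library kept the difference between 0.50 and 0.70. The CFLAR to CASP8 ratio was 0.915, 0.894 and 0.915 in the controls and 0.775, 0.857 and 0.737 after CLs. Here all treated libraries were below, with a difference of -0.20 and the same exact permutation p of 0.1 and 0.25 adjusted. How often the ratios of other gene pairs separate was not computed, while 11.5% of single genes did so in either direction. PMAIP1 was looked at after its values were seen, and CFLAR was among the genes whose groups did not overlap. Their ratios are thus not independent of those results. The BAX to BCL2L1 ratio, 1.10, 1.16 and 1.67 against 1.27, 2.15 and 2.49, overlapped through CLs-1 and Control-3. Its difference was 0.56 at an exact permutation p of 0.2, with 0.85 without CLs-1 and 0.36 without CLs-3. The BBC3 to MCL1 and TNFRSF10D to TNFRSF10B ratios overlapped too, with differences of 0.24 and 0.18 and exact permutation p-values of 0.6 and 0.8. Leaving out a library moved the first between -0.02, without Control-1, and 0.52, without Control-3, and the second between -0.19, without Control-3, and 0.42, without Control-1.

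**Figure D5:**
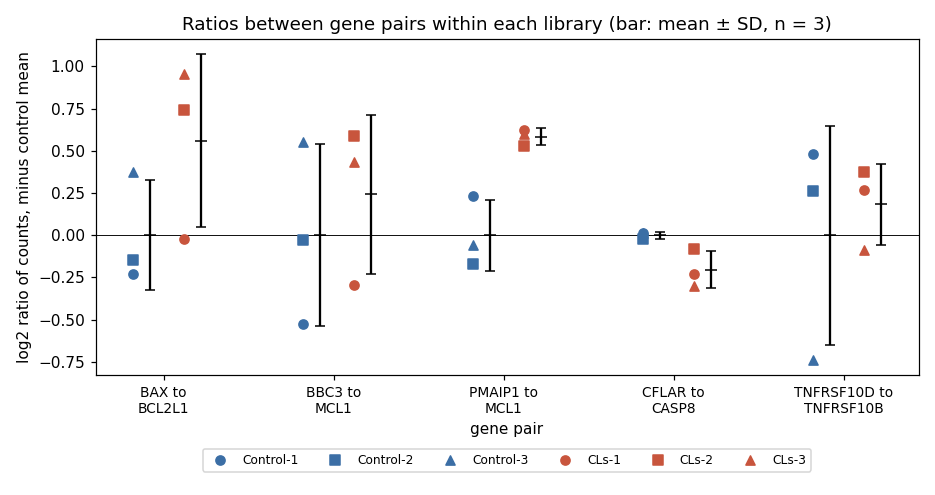
Log2 ratio of counts between 2 genes of the same library, minus the control mean of that ratio (vertical axis), for 5 gene pairs (horizontal axis); coloured points are libraries and black bars the mean ± SD of 3. The PMAIP1 to MCL1 points of the CLs-treated libraries sit above all controls and the CFLAR to CASP8 points below, while the other 3 pairs overlap.

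Levels between genes were compared per kilobase of exon in the controls. BAX was the highest at 67.5 ± 8.70 CPM per kb (SD, n = 3), followed by MCL1 at 49.5 ± 2.59 and TNFRSF1A at 48.4 ± 2.52 CPM per kb, and these last 2 did not differ beyond their spread. BCL2 at 0.720 ± 0.121 and BIK at 0.452 ± 0.179 CPM per kb were the lowest, and their ranges overlapped as well. Along the whole order, neighbours overlapped in 32 of 37 pairs. The order depends on the length used. With the median length of a gene's coding transcripts, a setting added after the data were seen, BAX remained highest at 155 CPM per kb and BCL2 and BIK lowest, but CYCS came next at 130.5 CPM per kb, and MCL1 moved to rank 4 at 55.8 CPM per kb. CFLAR, whose exons add up to 20637 bases against a median transcript of 1646, moved from rank 35 with 1.36 to rank 17 with 17.0 CPM per kb.

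Single libraries set the extremes of many genes. CLs-1 was the highest or the lowest of the 6 libraries in 16 of 37 genes, or 43.2%, against 48.7% of all genes tested. It was the lowest for BCL2L2, BAX, BAK1, BOK, BAD, DIABLO, HTRA2, CASP9, TNFRSF1A and FADD, and the highest for PMAIP1, APAF1, XIAP, BIRC2, CASP2 and CASP6. Control-3 and CLs-3 together were the 2 highest or the 2 lowest in 8 of 37 genes, 21.6% against 18.6% of all genes: BCL2L11, AIFM1, CASP4, CASP10, FAS, TNFRSF10B, TNFRSF10D and TNFRSF1A. Both shares were near those of all genes.

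Other genes of the pathway were read from a list of 47, of which 30 had enough reads to test. None was called by edgeR's quasi-likelihood test or by DESeq2, 13 estimates were above 0 and 17 below, and the median log2 fold change was -0.01. TNFRSF12A, the receptor of the ligand TWEAK, was the 1 gene at an unadjusted p under 0.05, against 5.81% of all genes tested. It stood at 78.2, 49.2 and 42.3 CPM in the controls and 42.8, 37.9 and 37.9 CPM after CLs, with a log2 fold change of -0.52 ± 0.21 (SE) and an adjusted p of 0.760 by edgeR's quasi-likelihood test. Control-1 was the high library, and CLs-1 lay just above Control-3. BCL2A1, FASLG and RIPK3 had no read in any library, which does not show that they were absent from the cells.

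Regulators that switch on some of these genes were read from lists of p53 with its targets outside the family and of ATF4 with CHOP. Of the 15 p53 genes tested, edgeR's quasi-likelihood test called 0, with 1 at an unadjusted p under 0.05, and DESeq2 called 1, in both cases GDF15. Over all genes tested DESeq2 called 107, and 5.81% were at an unadjusted p under 0.05 by edgeR's quasi-likelihood test. GDF15, a secreted stress factor that p53 and ATF4 both drive, was at 35.3, 55.9 and 56.6 CPM in the controls and 58.4, 108 and 106 CPM after CLs. The treated libraries were all higher, though CLs-1 lay just over Control-3. Its log2 fold change was 0.88 ± 0.25 (SE), with an unadjusted p of 0.00421 and an adjusted p of 0.331 by edgeR's quasi-likelihood test, and with DESeq2 the adjusted p was 0.0414. Of the 10 ATF4 and CHOP genes, 0 were called by edgeR's quasi-likelihood test or by DESeq2. Their median was 0.25 and 8 of their estimates were above 0, against 0.01 and 52.1% over all genes tested. TRIB3, a pseudokinase that CHOP induces, was the 1 gene at an unadjusted p under 0.05, with 79.98, 71.2 and 42.4 CPM in the controls and 110.01, 105 and 79.2 CPM after CLs. CLs-3 lay under Control-1, so the groups overlapped, although each treated library lay above the control of its own number. The log2 fold change was 0.61 ± 0.22 (SE) at an adjusted p of 0.654 by edgeR's quasi-likelihood test.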

How the data were processed

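Total RNA from 6 samples was sequenced single-end on the Ion Proton. The authors mapped reads with MapSplice, and the submitters' processing notes name HTSeq 0.6.1 and hg19. The deposited values are whole-number counts of reads per gene symbol, not normalized. The strand setting and the handling of reads with several matches are not given in the sources used here. Per the study's methods, RPKM and EBSeq served its own comparisons and are not used here.

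All 6 columns were used, with totals of 11418527 to 13998946 reads. Counting error and the spread between libraries, at 3 a group, both limit precision. Groups and numbers came from the sample titles, and no 2 libraries of the same group agreed within sampling noise. Control libraries were not compared with CLs-treated ones in this way. edgeR 4.0.16 in R 4.3.3 fitted the condition alone by the quasi-likelihood test, with filterByExpr, TMM and Benjamini-Hochberg adjustment over 15047 genes. A call needed an adjusted p under 0.05, and a fold change that was above 1.5 or below 0.67. Standard errors come from the F statistic. CPM are TMM-scaled. Count ratios had 0.5 added to each count and were tested with scipy 1.17.1. Exon lengths are from GENCODE on GRCh38, not the build of the reads, and promoters from RefSeq on GRCh38.p14.

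The 38 genes and all lists were chosen with earlier results of these data known. Values per library are given for genes at an unadjusted p under 0.05, genes whose groups do not overlap, and the gene with most reads of each role, with PMAIP1, BIRC3 and CASP4 added after their values were seen. From other lists, genes at an unadjusted p under 0.05 are named, and further names were chosen after their values were seen. On simulated counts for this comparison, 2.5% of 200 genes changed 1.5-fold were recovered over 14827 genes, 66.5% of those changed 2-fold over 14852, and 94.5% of those changed 4-fold over 14868. Alternatives were DESeq2 1.42.0, other scaling and filters, no fold criterion, a block for the replicate number, and the leaving out of every sample by turns.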

Additional observations from a re-analysis of the deposited data

How the results depend on the processing

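No gene of the 37 was called by edgeR or DESeq2 under any alternative run, and the smallest adjusted p, 0.288 as reported, was 0.0973 with DESeq2, 0.150 with the replicate block and 0.245 to 0.969 with a sample left out. The count of all genes called, 13 as reported, was 107 with DESeq2, 8 with library size only, 171 with no low count filter, 68 with the replicate block and 3 to 7 with a sample left out; the cause was not tested, except that a left-out sample leaves fewer samples. RLE scaling gave 18, upper quartile scaling 15, a mean count of 50 or more 14 and no fold criterion 13. Among the 37 genes, those at an unadjusted p under 0.05, 2 as reported, numbered 3 with the replicate block and 3 with no filter, BIRC3 being the addition. With a sample left out they numbered 1 to 4, with BCL2L1 alone without Control-2 and with MCL1 and BIRC3 added without CLs-1. The share of all genes at this level was not computed for these alternatives, so the added genes cannot be set against it. Genes whose groups do not overlap, 3 as reported, numbered 5 to 9 with a sample left out, the 9 being without CLs-1, when 27.3% of all genes did not overlap. With any other sample left out, 16.7% to 21.9% of all genes did not overlap. With a sample left out, the log2 fold change ran from -0.073 to 0.28 for BAX, from -0.11 to 0.28 for CYCS, from -0.11 to 0.21 for BIRC2, from -0.12 to 0.19 for CASP2, from -0.20 to 0.38 for CASP4, from -0.025 to 0.11 for TNFRSF1A and from -0.018 to 0.20 for FADD, so that the signs of these 7 rest on single libraries. The reversed values were -0.013 and -0.073 for BAX, without CLs-2 and without CLs-3, and -0.11 for CYCS without Control-3. They were -0.11 for BIRC2 without CLs-1, and -0.00043 and -0.12 for CASP2, without Control-1 and without CLs-1. For CASP4 they were -0.02, -0.09 and -0.20, without Control-1, Control-2 and CLs-3, and they were -0.025 for TNFRSF1A and -0.018 for FADD without CLs-3. Among the other genes, BCL2, BAD, BBC3, APAF1, HTRA2, AIFM1, XIAP, CASP6, CASP10, TNFRSF10B and RIPK1 also changed sign when a sample was left out. Deviations of samples with the same number correlated at 0.11, 0.0987 and 0.305, and those of unlike number at -0.201 to 0.0783. Each sample thus correlated best with its own number. The numbers were not taken as pairs because not every correlation passed 0.1, but this cut does not settle whether they are pairs. If they are, the replicate block, with its 68 genes called, is the closer fit. At this depth and size, simulated counts recovered 2.5% of changes of 1.5-fold and 66.5% of changes of 2-fold. Nearly all simulated 1.5-fold changes were thus missed, where a call also needed an estimated fold change above 1.5 or below 0.67.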

Other observations

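Of the 6 death ligands listed, 3 had enough reads to test. Neither edgeR's quasi-likelihood test nor DESeq2 called any, and 0 were at an unadjusted p under 0.05 by edgeR. TNFSF15, a ligand of the TNF superfamily, was chosen after its values were seen. It stood at 7.64, 8.46 and 33.0 CPM in the controls and 6.44, 3.80 and 14.1 CPM after CLs, and the number 3 library was the highest of each group. The groups overlapped, and the log2 fold change of -1.02 ± 0.57 (SE) had an unadjusted p of 0.0988 and an adjusted p of 0.920 by edgeR's quasi-likelihood test. TNFSF10, which encodes TRAIL and was also chosen after its values were seen, was likewise highest in the number 3 library of each group, with 8, 14 and 81 counts in the controls and 14, 15 and 39 counts after CLs. TNF had at most 6 counts in a library.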
